A study of Rattus norvegicus with 4 samples.

Results

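Sham-operated gracilis muscle was read in the green (Cy3) channel of each of 4 Agilent rat arrays, and these 4 green channels are described here out of 8 channel samples in the series. They were chosen by channel alone. The rats were male and Sprague-Dawley. Each array paired 1 sham muscle with 1 muscle that had 4 h of ischemia and then 1, 3, 7 or 14 days of reperfusion, and the red (Cy5) channel of the injured muscle was not used. An array is named below by the reperfusion day of its injured partner. The labels give no age, no harvest time for the sham muscle and no statement on whether the 4 sham RNAs came from 1 animal or from several. A difference between arrays can therefore belong to the animal, the dissection, the amplification, the hybridisation or the scan, and these cannot be told apart. Each array has 1 sham channel, so no test of an array was possible and the values are descriptions. Their number limits the precision.

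The gracilis is a flat adductor muscle of the inner thigh. Skeletal muscle fibres are fast or slow, and each kind has its own forms of myosin, troponin and the other filament proteins. Slow fibres rely on mitochondria and myoglobin, and fast fibres on glycolysis. A muscle sample also holds blood, vessels, connective tissue, nerve and immune cells. A sham operation repeats the surgery without the ischemia, so that the effect of the surgery itself is present in the control.

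Each array carried 41372 spots for 41012 gene probes. The share of probes well above background in the sham channel was 34.7% on day 7 and 41.1% to 47.3% on the other days. Of 35653 gene names, 12332 were well above background on all 4 arrays and 18077 on none. The array of day 7 alone was dim for 1982 genes, against 15, 62 and 33 genes for those of days 1, 3 and 14. The 12329 genes with a full set of 4 values were used below, 7282 of them with a gene symbol. Levels are log2 green intensities after background correction and quantile normalization, on which a difference of 1 is a 2-fold difference.

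The brightest spots of sham muscle were those of muscle filament and ribosomal protein genes. Brightness depends on the probe as well as on the amount of transcript, so the order describes spots and not transcript abundance. Cryab, a small heat shock protein that protects the sarcomere, read 15.97, 15.95, 16.00 and 15.99 on days 1, 3, 7 and 14. Its spot was saturated on all 4 arrays, and its level is therefore a lower limit with no readable difference. Myh7, the slow myosin heavy chain, read 16.00, 15.95, 15.95 and 16.00 and was saturated on 3 arrays. Myh6, a near-identical paralog best known from the heart, read 15.69, 16.00, 15.99 and 15.90, and its probe may also take up Myh7 transcript.

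Also among the brightest stood Tpt1, Rplp1 and the fast troponins Tnni2 and Tnnc2. Ckm, the muscle creatine kinase, read 15.36, 15.57, 15.57 and 14.78. Mb, the oxygen store myoglobin, read 15.08, 15.36, 15.25 and 14.62. Both were lowest on the array of day 14, by less than 2-fold. Among the 100 brightest genes with a symbol, 34 had names of ribosomal proteins or their copies, of which 0 ranged over 2-fold. Copies of ribosomal protein genes share sequence, so each such probe may read several of them. Also among the 100 were 6 fast fibre genes and 6 slow fibre genes, and the range reached 2-fold for all 6 of the fast and 0 of the slow. Of all 12329 genes, 4.99% had a range of at least 2-fold over the 4 arrays.

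**Figure D1:**
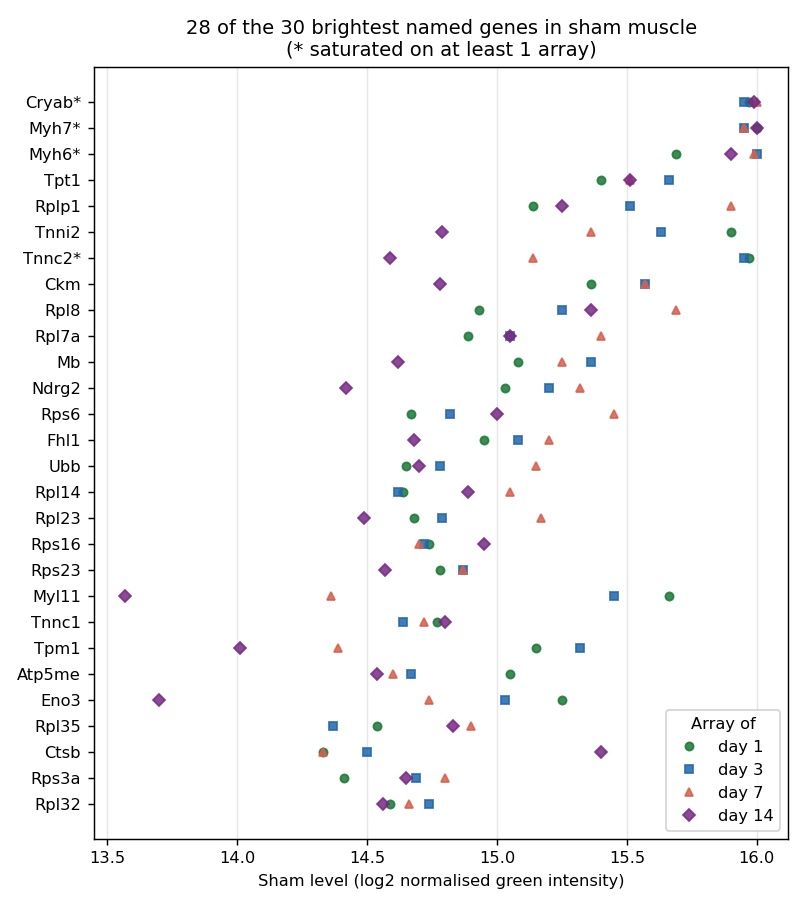
Sham level (x axis, log2 normalised green intensity) of 28 of the 30 brightest genes with a symbol, 1 marker for each of the 4 arrays. Most rows are tight, while Myl11, Eno3, Tpm1, Tnnc2 and Tnni2 spread out, with the array of day 14 lowest, and Ctsb has its highest value on that array. Cryab and Myh7 sit at the top of the scale, where spots were saturated.

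The defining markers of muscle were bright on every array. All 13 fast fibre genes, all 13 slow fibre genes and all 19 shared sarcomere genes on the array were measured in all 4 sham samples. For other cells the picture differed by type. Of 22 fat cell genes 13 were measured and the defining Lep, Plin1 and Cidec were well above background on no array. Of 17 T and B lymphocyte genes only 6 were measured, while Cd3e, Cd4, Cd79b and Ms4a1 were well above background on no array. Of 14 neutrophil genes 5 were measured, S100a8 at 9.32, 9.57, 9.71 and 9.29, whereas Mpo was well above background on none. Of 16 endothelial genes 9 were measured, among them the growth factor receptor Kdr at 11.02, 11.23, 11.43 and 10.96, while Pecam1 was well above background on no array. Of 12 genes of smooth muscle and pericytes 9 were measured, such as Notch3 at 10.81, 10.87, 11.33 and 11.08, and Cnn1 was well above background on none. Of 9 tendon genes 4 were measured, such as the matrix protein Thbs4 at 11.29, 10.84, 10.41 and 11.31, and Tnmd was well above background on none. Of 8 red cell genes 5 were measured, of which the hemoglobins Hba-a3 and Hbb-b1 were bright, with ranks 112 and 305 among the 12329 genes. Alas2 was low and even, at 7.69, 7.65, 7.69 and 7.67, and Ahsp and Hbb were dim too. A probe below background bounds only its own signal and does not show that a cell type was absent.

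All 20 macrophage genes were measured in all 4 sham samples. Spp1, the secreted matrix protein osteopontin, had rank 53 in brightness among the 12329 genes. Its level was 14.07, 14.70, 14.03 and 15.17. Tyrobp, a signalling adaptor of myeloid cells, read 13.35, 13.83, 13.93 and 13.66, and Lyz2, the macrophage lysozyme, 12.93, 13.63, 13.83 and 13.67. The surface and lysosomal marker Cd68 read 11.69, 11.84, 11.32 and 11.46, with no array apart. Ccl2, the chemokine that draws in monocytes, had rank 369 and read 12.04, 12.99, 13.20 and 13.01.

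Of 15 genes of satellite cells and regenerating muscle, 12 were measured, and their brightness differed widely. Mustn1, a small protein of developing and regenerating muscle, read 14.53, 14.23, 13.83 and 14.39. Myog, the transcription factor of muscle differentiation, read 12.78, 12.38, 12.33 and 12.60. Embryonic myosin Myh3 read 9.78, 9.88, 10.06 and 9.78. Myf5, an early factor of muscle precursors, was dim at 6.77, 7.00, 7.03 and 7.01, as was the satellite cell cadherin Cdh15 at 7.08, 7.24, 7.43 and 7.16. Calcr and Sox8 were well above background on no array. Of the 12 genes 1, Myod1, had a range of at least 2-fold (8.33%, against 4.99% of all genes). No unoperated muscle was on the arrays, so an effect of the surgery was not tested.

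Across genes the sham channels resembled each other, and the array of day 7 stood apart. Pearson's r across the 12329 genes was 0.994 between days 1 and 14, 0.992 between days 1 and 3 and 0.988 between days 3 and 14. It was 0.965, 0.976 and 0.968 between day 7 and days 1, 3 and 14. These are values across genes of single arrays, and genes are not replicates. At least 2-fold apart were 46 genes (0.373%) between days 1 and 3, 61 (0.495%) between days 1 and 14 and 122 (0.99%) between days 3 and 14. With day 7 there were 471 genes (3.82%) against day 1, 345 (2.8%) against day 3 and 406 (3.29%) against day 14. Of the 471 genes 455 were lower on day 7, of the 345 genes 339, and of the 406 genes 393.

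Over all 4 arrays, 615 genes (4.99%) had a range of at least 2-fold and 99 of at least 4-fold. The lowest of the 4 values was that of day 7 in 540 of the 615. Without the array of day 7 the count was 149. Set against the mean of the other 3 arrays, day 7 had 3 genes (0.0243%) at least 2-fold higher and 375 (3.04%) lower. Day 1 had 49 higher (0.397%) and 8 lower (0.0649%), day 3 had 28 higher (0.227%) and 10 lower (0.0811%), and day 14 had 71 higher (0.576%) and 19 lower (0.154%). The typical gene hardly moved, with a median range of 0.35, a 1.27-fold span.

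**Figure D2:**
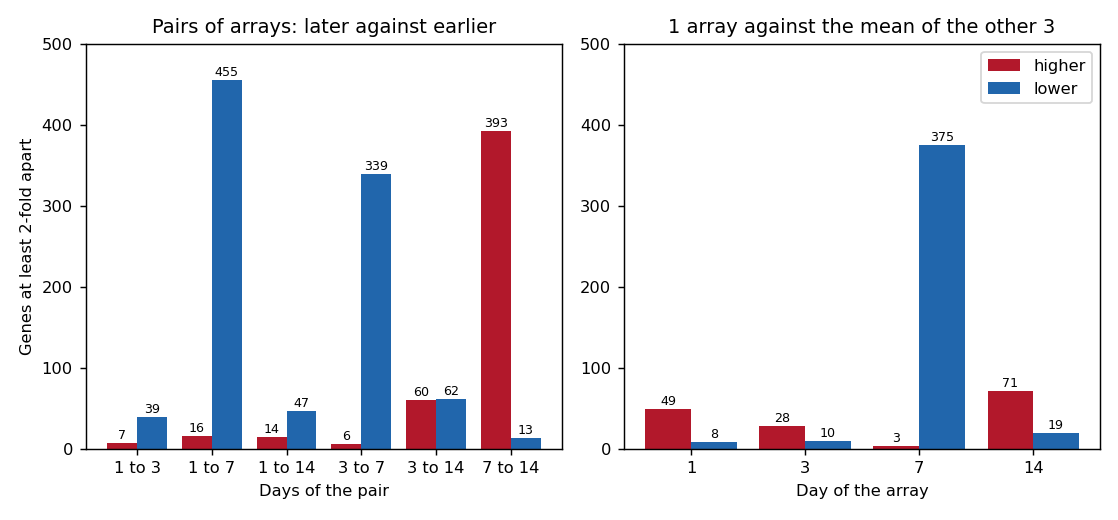
Genes at least 2-fold apart between sham channels (y axis, number of 12329 genes), for pairs of arrays on the left and for 1 array against the mean of the other 3 on the right. Red bars count higher and blue bars lower genes. The tall bars all involve the array of day 7, which had 375 genes lower and 3 higher than the mean of the others.

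The noise of a single spot was not the same on the 4 arrays. Of the gene probes, 40 were printed 10 times at different places, and 25 of these were well above background on every array. Within an array the SD over the spots of 1 such probe had a median of 0.204 on day 1, 0.332 on day 3, 0.852 on day 7 and 0.186 on day 14, in log2 units. The spread on day 7 was therefore several times that on the other arrays for identical letters and the same RNA. On that array 36 of 243 spots (14.8%) lay at least 2-fold below the median of their own probe. The shares were 0.82%, 3.31% and 0.833% on days 1, 3 and 14.

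Ldha, the lactate dehydrogenase subunit of fast muscle, is an example that a reader can follow. Its 10 spots ran from 10.27 to 11.09 on day 1, with a median of 10.94. On day 7 they ran from 8.59 to 11.47, with a median of 10.96, and their SD was 0.89 against 0.26 on day 1. The medians of the 4 arrays, 10.94, 10.79, 10.96 and 10.90, differed by far less than the spots of day 7 did. Most genes are read by 1 spot, whose spread within an array cannot be read, and the repeated probes need not stand for them. Over the 12329 genes, the SD of the difference between day 7 and another array was 0.461 for day 1, 0.377 for day 3 and 0.434 for day 14.

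**Figure D3:**
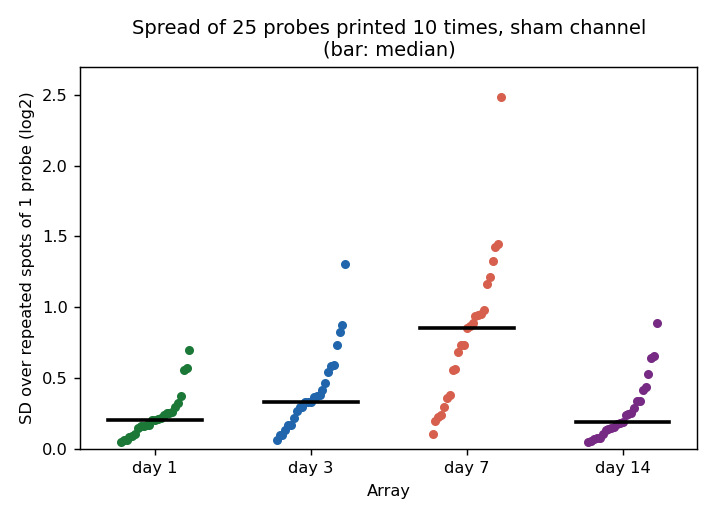
SD of the log2 sham level over the repeated spots of 1 probe (y axis) for 25 probes printed 10 times, by array (x axis), with the median as a bar. The medians are 0.204, 0.332, 0.852 and 0.186 for days 1, 3, 7 and 14, and the points of day 7 reach 2.49.

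Genes of fast fibres differed between arrays, with the largest share past 2-fold among the 32 gene lists. Of 13 measured, 8 had a range of at least 2-fold (61.5%, against 4.99% of all genes). Below the mean of the other 3 arrays lay 11 on day 7 and 10 on day 14. The list's median difference from the other 3 arrays was 0.56 on day 1, 0.52 on day 3, -0.36 on day 7 and -0.84 on day 14. Over all genes these medians were -0.07, -0.01, 0.15 and -0.06. The list was compiled with earlier results of these arrays known, so its count is a description.

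Myl11, the regulatory light chain of fast myosin, read 15.66, 15.45, 14.36 and 13.57 (SD 0.98, n = 4). Days 1 and 3 were close, day 7 was lower and day 14 lowest, 3-fold below the mean of the others. Myh4, the myosin heavy chain of the fastest fibres, read 14.87, 14.84, 13.78 and 13.20 (SD 0.82, n = 4) and was 2.46-fold lower on day 14.

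The troponins of fast fibres were likewise higher on days 1 and 3 than on days 7 and 14. Tnnc2, the fast calcium-binding troponin, read 15.97, 15.95, 15.14 and 14.59, and since its spots of days 1 and 3 were saturated its range of 2.6-fold is a lower limit. Tnni2, the fast inhibitory troponin, read 15.90, 15.63, 15.36 and 14.79. Tnnt3, the fast tropomyosin-binding troponin, read 14.26, 14.44, 13.16 and 13.20. Days 7 and 14 were level for this gene and both lay below days 1 and 3.

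Myl1, the essential light chain of fast fibres, read 13.94, 14.16, 12.85 and 12.70, and the Z-disc protein Actn3 read 15.00, 15.17, 14.32 and 13.84. Pvalb, the calcium buffer parvalbumin, read 13.56, 13.49, 13.39 and 12.51. It was apart on day 14 only, by 1.96-fold. Of the members that stayed within 2-fold, Myh2 of intermediate fast fibres read 12.02, 12.03, 11.68 and 11.32, and the calcium pump Atp2a1 12.25, 11.95, 11.80 and 12.26. Mylk2, the kinase of the regulatory light chain, was level at 8.21, 8.27, 8.46 and 8.45.

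Some genes outside the fast list were also lowest on day 14. Eno3, the muscle enolase of glycolysis, read 15.25, 15.03, 14.74 and 13.70 and was 2.47-fold lower on day 14. It was the only 1 of 18 glycolysis and glycogen genes at least 2-fold lower that day, against 0.154% of all genes. The median of the 18 was -0.04 on day 14, against -0.06 over all genes. Acta1, skeletal actin, read 14.62, 14.77, 13.75 and 13.57. Tpm1, the fast and cardiac tropomyosin, read 15.15, 15.32, 14.39 and 14.01 with its brightest probe. Its next probe read 13.87, 13.84, 13.36 and 12.88, again lowest on day 14. The probe after it read 13.44, 13.41, 12.63 and 12.95, lowest on day 7. The dimmest read 9.74, 9.48, 8.98 and 9.75, without the drop on day 14.

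Slow fibre genes stayed within 2-fold. Of 13 measured, 0 had a range of 2-fold (0%, against 4.99% of all genes), and the medians were 0.01, -0.03, 0.13 and -0.10. Tnnc1, the slow and cardiac troponin C, read 14.77, 14.64, 14.72 and 14.80, and Tnni1, the slow inhibitory troponin, 14.06, 14.06, 13.98 and 13.86. Tnnt1 read 13.36, 13.46, 13.46 and 13.14. Myl3, the slow essential light chain, read 13.23, 13.32, 13.58 and 13.33. Myh7 could not show a difference because of its saturation, and Myh6 was saturated on 1 array. In whole muscle a smaller share of fast fibres and less fast transcript per fibre cannot be told apart.

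**Figure D4:**
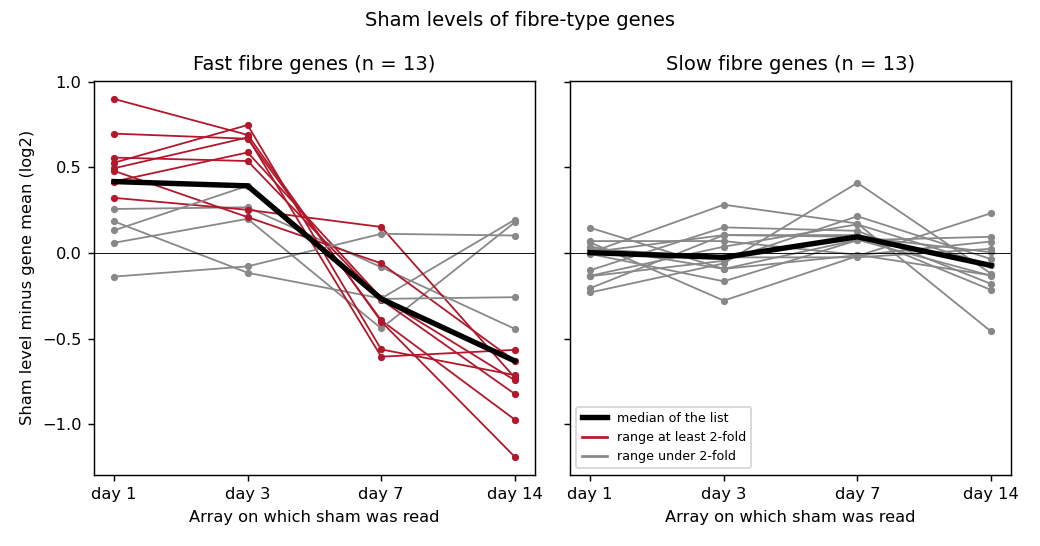
Sham level of each gene minus its own mean over the 4 arrays (y axis, log2) for 13 fast and 13 slow fibre genes, 1 line per gene and the list median in black. The x axis names the array, and lines join readings of 1 gene and do not follow an animal over time. The fast genes are mostly high on days 1 and 3 and low on days 7 and 14, with their median lowest on day 14, while the slow genes stay near 0.

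The fast fibre pattern is placed beside what else differed between the arrays. Per the file headers every array was its own slide, and the slide of day 14 was read in a scan session separate from that of the other slides. For day 14, session and muscle cannot be told apart. Within the shared session each of the 8 genes with a range of at least 2-fold was lower on day 7 than on days 1 and 3, by least for Pvalb and Tnni2. On day 14 the 8 genes lay 1.69-fold (Tnnt3) to 3-fold (Myl11) below the mean of the others, and the median SD of repeated spots on that array was 0.186 in log2 units. On day 7 that SD was 0.852, or 0.468 for the 12 repeated probes with more G and C bases. Myl11, Myh4, Tnnt3 and Myl1 lay more than 0.852 below both day 1 and day 3 on that array, whereas Actn3, Tnnc2, Tnni2 and Pvalb did not. The probes of the 8 genes lay in rows 38 to 122 of 206 and columns 2 to 150 of 215, outside the region of the array described below. Position outside that region also went with differences between arrays, as given below for day 3. Its part in the fast fibre pattern was not tested. Over the alternatives of processing, the difference of Myl11 between days 1 and 14 stayed between 2.06 and 2.38, and that of Myh4 between 1.66 and 1.81.

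The probes that read these genes differ between fast and slow myosin. Shown are bases 31 to 60 of the 60-base probes, 5′ to 3′ and all in lower case, with the rn4 positions that the files list for the whole probe. Myh4 was listed at chr10:53953933-53953992, Myl11 at chr1:186474405-186474464, and Myh7 over chr15:33073020-33073645, a span wider than the probe.
Myh4: tgaaagcctacaagagacaagcagaggagg
Myl11: tcacacacggtgacgctaaggaccaggaat
Myh7: ctgaatgaagagtagatcttgtgctaccca

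Other genes were apart on the array of day 14. Ctsb, a lysosomal protease rich in macrophages, read 14.33, 14.50, 14.33 and 15.40 and was 2.02-fold higher on day 14 with 1 probe measured. Spp1 was also highest there, at 15.17, while its lowest value was 14.03 on day 7. Of the 20 macrophage genes 3 had a range of at least 2-fold (15%, against 4.99% of all genes), and these, Spp1, Ctss and Mrc1, were lowest on day 7. On day 14, 0 of the 20 were at least 2-fold higher and 0 lower, against 0.576% and 0.154% of all genes. The median of the 20 on day 14 was 0.05, against -0.06 over all genes. Lgals3, a galectin of activated macrophages, read 12.99, 12.84, 13.02 and 13.70, whereas Gpnmb of lipid-laden macrophages read 12.41, 12.42, 11.66 and 11.47. The macrophage genes thus did not share 1 order over the arrays.

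Synpo2, an actin-bundling protein of the Z-disc, read 9.59, 9.69, 8.14 and 7.54 and was 3.04-fold lower on day 14. Itpa, an enzyme that clears inosine triphosphate, read 9.42, 9.25, 8.96 and 7.60. Of 5 red cell genes measured 1 had a range of at least 2-fold (20%, against 4.99% of all genes). This was hemoglobin Hbb-b1 at 13.58, 13.49, 12.58 and 12.54, lower on days 7 and 14, and its difference fell to 0.97 with the scanner software's spatial factor. Hba-a3 read 14.23, 14.08, 13.94 and 13.66, in the same order but within 1.49-fold. Hbb was dim and highest on day 7, at 7.26, 7.31, 7.51 and 7.29. Trim63, a ubiquitin ligase of muscle atrophy, read 10.82, 10.93, 9.97 and 9.91 with its brightest probe. Its other probe read 9.41, 9.57, 9.82 and 9.45 and did not repeat the drop.

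On the array of day 1 a few inflammatory and matrix genes were apart. Ccl2 at 12.04 was 2.04-fold below the mean of the other 3, which lay between 12.99 and 13.20. Lyz2 was 1.72-fold lower there. Ctsl, a lysosomal protease, was lower on day 1 with both of its probes, with differences of -0.62 and -0.80. The mitochondrial ribosomal protein Mrpl3 at 6.87 was 3.33-fold below the others, which lay between 8.50 and 8.71. Its probe, at row 37 and column 42, lay near those of Map1lc3b (row 39, column 45) and Mcm6 (row 37, column 41), also lowest on day 1. Hba-a3, at row 31 and column 40, was highest on day 1. The part of position in these values was not tested.

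Matrix genes had no common direction on day 1. The median of the 21 measured was 0.08, against -0.07 over all genes, and 9 lay below the mean of the other 3 arrays. Col3a1, a fibrillar collagen, read 13.43, 12.90, 12.40 and 12.40. Bgn, the small proteoglycan biglycan, read 12.07, 10.54, 10.13 and 11.85, high on days 1 and 14. Col1a1, the main collagen of connective tissue, read 13.76, 12.42, 11.79 and 11.25 with its brightest probe, a 5.69-fold range. Its next probe read 11.10, 11.50, 12.22 and 11.78 and the dimmest 10.03, 10.44, 10.45 and 10.49, neither with the fall from day 1 to day 14. The collagen partner Col1a2 read 10.52, 10.72, 11.18 and 10.75. Probes of Col1a1 thus disagreed in direction, and no direction is given for the gene. Fn1, fibronectin, read 12.52, 12.72, 13.02 and 12.84, lowest on day 1. Of the 21 genes 3 had a range of at least 2-fold (14.3%, against 4.99% of all genes).

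The 3 probes of Col1a1 lie close together near the end of the gene, the brightest at chr10:83638177-83638236 and the others at chr10:83637956-83638015 and chr10:83637903-83637962 (rn4). Bases 31 to 60 are shown to let the reader compare the letters of probes that disagreed. The brightest probe held 35% G and C bases and the other probes 55% each.
Col1a1 brightest: gtgaccaaaaaccaaaagtgcattcaacct
Col1a1 next: atggacattggccctgcctgcttcgtgtaa
Col1a1 dimmest: ccatcatcgatgtggcacccttggacgttg

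Few genes were singled out on the array of day 3. Hp1bp3, a chromatin protein, read 8.70, 6.75, 7.05 and 8.39, low on days 3 and 7. The ribosomal protein Rpl3 read 11.33, 10.52, 11.47 and 11.77, and the platelet chemokine Pf4 11.70, 10.53, 11.53 and 11.85. Both had day 3 alone below the rest, by 2.01-fold and 2.23-fold. The interferon-induced Ifi27l2b read 11.65, 12.07, 9.90 and 10.77 and was highest on day 3. With the array cut into 8 by 8 blocks, genes at least 2-fold higher on day 3 lay only in row blocks 1 to 3. The highest share in a block was 1.99%, against 0.227% of all genes. The probe of Ifi27l2b lay at row 48 of 206, and the part of position was not tested.

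The widest ranges of the whole set came from low values on day 7. Insig1, a brake on sterol synthesis, read 10.38, 8.92, 7.00 and 10.64, a 12.5-fold range. Rtcb, the ligase of tRNA splicing, read 10.80, 10.06, 7.52 and 11.04. Fermt3, an integrin activator of blood cells, read 10.18, 8.76, 7.27 and 10.36. The second probe of Insig1 read 9.38, 9.01, 7.60 and 9.58, also low on day 7, and the third 7.66, 7.65, 7.78 and 7.61, with no drop. With the median of all probes the difference of Insig1 fell from 3.64 to 1.98. For the probes first named of these 3 genes, days 1 and 14 were close together, day 3 lay between and day 7 was lowest.

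Some single muscle genes were low on day 7. Myod1, the transcription factor of muscle precursor cells, read 10.31, 9.88, 8.26 and 10.38 and was 3.81-fold lower there. It was the only 1 of 12 satellite cell and regeneration genes at least 2-fold lower that day, against 3.04% of all genes. Gsn, which severs actin filaments, read 12.18, 12.68, 9.61 and 10.32. Flnc, the muscle filamin, read 10.26, 9.48, 8.46 and 10.46, and Trdn, triadin of the calcium release unit, 13.36, 13.11, 11.94 and 13.06. The next probe of Trdn read 11.39, 11.07, 11.30 and 11.19, with no drop on day 7. Ugp2, which makes the sugar donor of glycogen, read 11.06, 11.38, 9.38 and 10.90. Its next probe read 10.16, 10.01, 9.79 and 10.01, and the difference of Ugp2 fell from 1.99 to 0.63 with the median of all probes.

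Of 35 genes of oxidative phosphorylation 4 were at least 2-fold lower on day 7 (11.4%, against 3.04% of all genes), and the list's median that day was 0.05, against 0.15 over all genes. Among the 4 were the ATP synthase subunit Atp5f1c at 11.42, 10.55, 9.29 and 11.48 and the complex IV subunits Cox5a and Cox6c. Cox5a read 12.26, 12.49, 10.82 and 11.37, and Cox6c 13.54, 13.47, 12.15 and 13.11. Of 39 ribosomal protein genes 3 were at least 2-fold lower, against 3.04% of all genes, with a list median of 0.09. Rps24 read 13.66, 13.01, 11.28 and 13.57, Rps7 read 11.07, 10.82, 9.58 and 11.23, and Rps27a 11.78, 11.84, 10.28 and 11.34.

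Phf10, a subunit of a chromatin remodelling complex, read 11.58, 10.91, 8.59 and 11.57 with its brighter probe. Its other probe read 10.13, 10.18, 10.45 and 10.36, with no drop on day 7. Among immune genes, Ctss, a protease of antigen-presenting cells, read 11.02, 11.04, 9.21 and 10.96, and its other probe 10.25, 10.45, 9.51 and 9.86. Mrc1, the mannose receptor of tissue macrophages, read 11.85, 11.17, 10.59 and 11.79, but its other probe 9.09, 8.40, 8.67 and 9.17.

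The proteasome subunit gene Psmc6 was at least 2-fold lower on day 7 with both of its probes. It read 10.88, 10.25, 9.49 and 10.76 with 1 probe and 10.58, 10.60, 8.89 and 9.62 with the other. Vps36 of endosomal sorting, Gdi2 and Cbx3 had both probes low by at least 0.5 as well. Plaat3, a phospholipase of fat tissue, read 11.34, 10.93, 9.59 and 10.90 and 9.70, 8.30, 7.59 and 9.70. Its probes were listed at chr1:210315194-210315253 and chr1:210315204-210315263 (rn4), so they share most of their letters and are not separate readings of the gene.

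The second probe of a gene mostly did not repeat a 2-fold drop. Of 1440 genes with at least 2 measured probes, 49 were called lower on day 7 by the brighter probe. The second probe was below 0 in 26 of the 49 and at least 2-fold lower in 5, where 3.04% of all genes were that low. Its median difference was -0.02, against -1.30 for the brighter probe and 0.15 over all genes. For the 6 genes called higher on day 14 the second probe was above 0 in 4 and past 2-fold in 0, against 0.576% of all genes. Over the 1440 genes, r between the differences of the 2 probes was 0.07, 0.01, 0.09 and 0.10 on days 1, 3, 7 and 14, given as a description across genes that share each array.

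The low values of day 7 were unevenly spread over the array. The array has 206 rows and 215 columns. In the region from row 155 and column 162 onward, 13.2% of 615 genes were at least 2-fold lower on day 7, against 2.51% of 11714 genes elsewhere. In the same region 4.88% were higher on day 14 and 2.11% higher on day 1, against 0.35% and 0.307% elsewhere. Within the region the share low on day 7 was 8.02% at levels over 7 to 8, 18.9% over 8 to 9, 21.6% over 9 to 10, 25.6% over 10 to 12 and 14.3% (4 of 28 genes) above that. Probes up to level 7 lie near the lowest levels, where a 2-fold drop can hardly be read. The median gene of the region was 0.10, near the 0.16 elsewhere.

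The brightest probes of Insig1, Rtcb, Fermt3, Phf10, Flnc and Trdn lay in that region, whereas those of Myod1, Gsn, Ctss and Rps24 did not. The Phf10 probe with no drop also lay there, at row 189 and column 204. So did the second Insig1 probe, which was low, and the third, at row 179 and column 184, which had no drop. The scanner software's own factor for slow change of brightness had a median of 0.456 in the region on day 7 against 1.06 elsewhere. On days 1, 3 and 14 it was 0.815, 0.615 and 0.943 in the region. Among the repeated probes, 16 spots fell in the region, and on day 7 8 of them were at least 2-fold below the median of their own probe. Without the region 294 genes were still lower on day 7, a count that includes the blocks beside it.

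**Figure D5:**
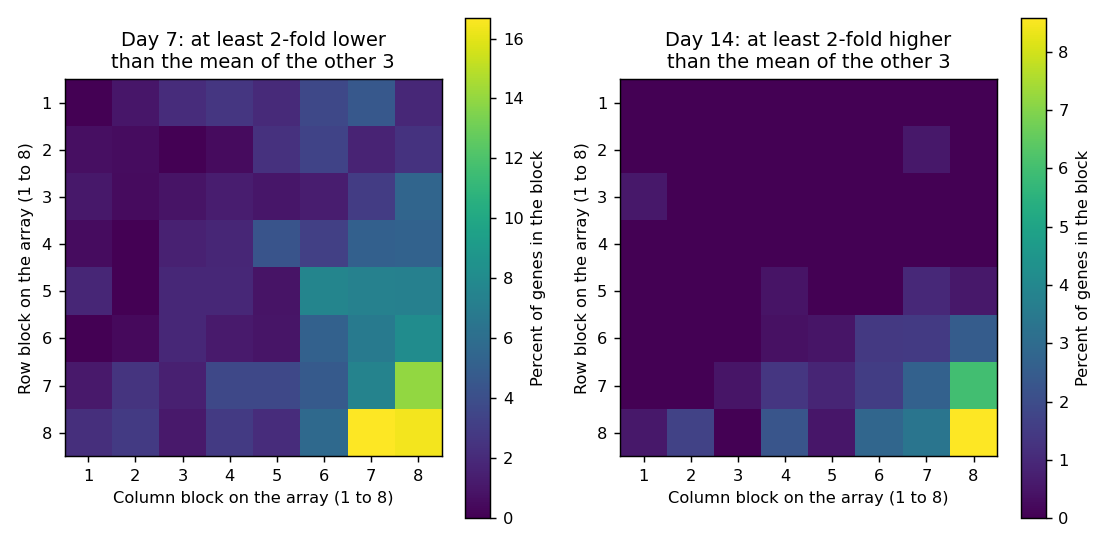
Percent of measured genes at least 2-fold lower on day 7 (left) and at least 2-fold higher on day 14 (right) than the mean of the other 3 sham channels, in 8 by 8 blocks of the array's rows (y axis) and columns (x axis). Both maps brighten toward the last rows and columns, reaching 16.7% on day 7 and 8.59% on day 14.

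The letters of the probe went with it too. Genes lower on day 7 had probes with a median of 41.7% G and C bases, against 45% in the other genes, and a higher median level, 9.41 against 7.97. The share lower on day 7 was 5.88% where the probe had up to 35% G and C bases and 1.97% where it had over 45%. The motif AATAAA, the polyadenylation signal near the 3′ end of most transcripts, was searched on the printed strand and is in 4.26% of all 41012 probes. Of 631 measured genes whose probe held it, 6.5% were lower on day 7, against 2.86% of the 11698 without it. With up to 35% G and C bases the shares were 10.8% and 5.18%. Outside the region of the array described above they were 6.26% and 2.31%. Position, base composition and the motif are given beside the drop, and their part in it was not tested.

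Shown are 5 probes that were low on day 7 and held the motif, 30 of their 60 bases each, 5′ to 3′, with AATAAA in capitals. The rn4 positions listed for the whole probes are chr3:14386247-14386306 for Gsn, chr1:96912833-96912892 for Myod1, chr8:61276320-61276379 for Cox5a, chr14:110559625-110559684 for Rps27a and chr6:127733554-127733613 for Ifi27l2b. Those of Rps27a and Ifi27l2b were listed from the higher to the lower coordinate.
Gsn: ctgtactttggaAATAAAacccAATAAAag
Myod1: tcaggtgttggaAATAAAgatgctaattta
Cox5a: aacttggactttAATAAAgggaaatgagtt
Rps27a: tgtgtatgagttAATAAAgagaaggaactg
Ifi27l2b: gaatgacggaaaAATAAAggtggtttgttg

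For comparison, the probes of Phf10 that disagreed on day 7 hold no such motif in the 30 bases shown, which are bases 31 to 60. The brighter, at chr1:53874321-53874380, had 35% G and C bases. The other, listed over chr1:53875999-53879829, a span wider than the probe, had 45%. Both probes lay in the region of the array described above.
Phf10 brighter: ttatttacaacactttcatttttatgccaa
Phf10 other: aatgctctatgtggaatttgtctgaagggt

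Genes higher on day 7 were few. Acad9, a mitochondrial dehydrogenase and complex I assembly factor, read 9.73, 9.46, 11.10 and 9.62, 2.83-fold above the others, while its dimmer probe read 6.95, 6.88, 7.06 and 6.82. Slc6a20a, an amino acid carrier, read 6.51, 6.58, 7.98 and 6.69.

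Of 18 cytokine and chemokine genes 3 had a range of at least 2-fold (16.7%, against 4.99% of all genes). These were Ccl2, the chemokine Cxcl14 at 10.26, 10.14, 9.15 and 10.56, and the inflammatory cytokine Il1b at 9.55, 9.81, 8.68 and 9.25. The shares were 15.8% of 19 shared sarcomere genes, 15.4% of 13 genes of excitation and calcium release and 11.1% of 18 genes of glycolysis and glycogen. In some other lists no gene did. None of the measured genes had a range of 2-fold among 18 of the tricarboxylic acid cycle, 20 of fatty acid oxidation, 13 of fat cells, 9 of endothelium, 20 of the cell cycle and 10 of the clock. The clock gene Per1, whose transcript swings over the day, read 6.76, 6.92, 7.11 and 6.70. The brighter clock gene Dbp was highest on day 7 and stayed within 1.46-fold. The fasting-induced kinase Pdk4 read 6.76, 6.75, 6.96 and 6.79. Per1 and Pdk4 lie near the lowest levels, where a 2-fold drop can hardly be read. Of 15 genes of the fasting and glucocorticoid response 1, Cebpb, had a range of at least 2-fold (6.67%, against 4.99% of all genes). It read 8.87, 8.14, 7.44 and 9.14. A difference in feeding or time of day between the arrays was not tested. Of 22 immediate early genes, which respond within minutes to handling and injury, 2 had a range of at least 2-fold (9.09%, against 4.99% of all genes). These were Ccn2 at 9.12, 8.27, 7.83 and 9.22 and Junb at 8.17, 7.87, 7.45 and 8.47, lowest on day 7. The difference of Junb fell from 1.02 to 0.48 with the software's spatial factor.

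Of 13 genes often used as references 1, Actb, had a range of at least 2-fold (7.69%, against 4.99% of all genes). Gapdh read 14.36, 14.45, 14.67 and 14.15, within 1.44-fold, but its other probe 14.47, 14.12, 13.97 and 14.07. Actb, cytoplasmic actin, read 14.49, 13.81, 13.60 and 14.77, a 2.26-fold range with days 1 and 14 high. Its other probe read 13.03, 12.89, 12.86 and 13.31, in the same order and within 2-fold. With the median of all probes the difference of Actb fell from 1.17 to 0.81.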

How the data were processed

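Sham muscle RNA was read in the green channel of 4 arrays. Feature Extraction is given as version 10.5.1.1 per the file headers and as 9.5.3 in the notes on processing. For each spot the deposited files hold a mean green intensity and a local background median, both without normalization; the deposited software signal is background-subtracted, and the software's spatial factor is a deposited ratio. Probe positions are those of the rn4 build listed in the files.

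Background was corrected with normexp (offset 50) in limma 3.58.1 and R 4.3.3. Control spots were then dropped, outlier spots left out, and arrays quantile-normalized. Spots of a probe were averaged, and the brightest probe stood for its gene. Saturated spots were kept. Genes well above background on all 4 arrays were used. Probe names came from a GRCr8 gene table, used for names only: 10938 probes by accession, 1645 by current and 460 by older symbol, 6546 by a design-time name and 21423 as in the file.

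With 1 sham channel per array no test was run; differences of at least 2-fold were counted. Simulated arrays were counted in the same way, 1 array against the other 3, over 14047 probes. The count found 69% of 100 probes changed by 1.5 log2 units and 85% of 100 changed by 3, with 0% of unchanged ones called. The simulated spot noise was the same on all arrays, below the median SD of repeated spots measured on each, and free of position effects. These shares follow from that setting and do not apply to the measured arrays. In the measured data, 14.4% of repeated spots on day 7 lay at least 2-fold below the mean of the other 3 arrays. Named by rule were the 30 brightest genes, the 20 widest ranges, the 5 highest and 5 lowest per array, the 3 widest of each list, list members past 2-fold and a fixed set of markers. Some named genes are not reported here. Any further gene in the text was picked with its values in view. The members and the 32 lists were chosen with earlier results of these data known. Alternatives covered background correction, normalization, the filter on dim probes, the choice of probe, leaving out each array, and, added after the data were seen, the position on the array.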

Additional observations from a re-analysis of the deposited data

Results flagged for a closer look

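The gap of the farthest sham value to its nearest neighbour, as a share of the range over the 4 arrays, passed Dixon's 95% critical value for 4 samples in 9 of 166 named genes. Chance flags about 1 in 20 groups, and 9 of 166 is near that share. Some genes, such as Mrpl3, Tmem106a, Slc6a20a and Acad9, were named because 1 array stood apart, so the rate for unselected genes does not apply to them. On the array of day 14, Ctsb was high with a gap of 0.84 and Rps16 with 0.854, while Pvalb was low with 0.839 and Plk1, a mitotic kinase, with 0.869. For Rps16 the range was only 0.25 in log2 units. On the array of day 1, Mrpl3 was low with a gap of 0.884 and Tmem106a with 0.951. Their probes lay at row 37, column 42 and at row 23, column 26. On the array of day 7, Ctss was low with 0.958, and Slc6a20a and Acad9 were high with 0.879 and 0.84.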

How the results depend on the processing

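The counts of genes with a range of at least 2-fold (615), of calls summed over the 6 pairs (1451) and of calls of 1 array against the other 3 (563) stayed within 1.5 times under plain subtraction, 75th percentile scaling, cyclic loess, the looser filter, the median of all probes and without the region from row 155 and column 162. The software's background-subtracted signal gave 1535, 3656 and 1485, and this signal divided by its spatial factor 1964, 4280 and 1605. Dividing by the factor gave 159 genes higher and 1013 lower on day 7, where the undivided signal gave 10 and 933. Leaving out 1 array gave 149 to 560 genes by range, 235 to 933 calls over the 3 remaining pairs and 133 to 634 calls of 1 array, the lowest being without day 7 each time. Cyclic loess moved the median of all genes on day 7 from 0.15 to 0.03.

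Of 69 named genes at least 2-fold apart, 55 stayed so in every alternative that gave a value. Under the median of all probes Col1a1 (day 1 minus day 14) reversed to -0.15. Acta1 fell to 0.68 and Trim63 to 0.28 with the spatial factor, and Tpm1 to 0.71 with the median of all probes. The median of the mast cell list on day 7 turned to -0.08 with the spatial factor. The cause of these shifts was not tested. No paired analysis was possible because each array holds 1 sham channel and there is 1 group. Signal over background limits the day 7 array, with 34.7% of probes well above background.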
